A study of Homo sapiens with 12 samples.

Results

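The genes of the mitochondrial carrier family were followed after treatment with metformin or AICAR in LNCaP, an established line of human prostate cancer cells. In this set of 28 genes, SLC25A13 was lower with AICAR than in control cells and higher with metformin than with AICAR, SLC25A10 was lower with metformin than with AICAR, and no carrier gene passed the test between metformin and control. The set holds every gene whose symbol in the deposited platform annotation starts with SLC25A, together with UCP1, UCP2 and UCP3. These 28 genes have 34 of the 27648 features on the array and make up 28 of the 24541 transcripts tested. Of them, 23 have 1 probe and 5 have several, whose ratios were averaged. The cells received 5 mM metformin, a biguanide used against diabetes, or 5 mM AICAR, a nucleoside that cells turn into an AMP analogue that activates AMPK, or were left untreated as control. The labels give 24 h for both treatments, and another place in the study gives a shorter time for metformin. Each comparison was made in 2 replicates of LNCaP, which the sample titles number 1 and 2 and which are called cultures here. The dyes were exchanged on a second array, which gives 12 arrays, and the labels give an RNA integrity number of 9 for every extract.

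Mitochondrial carriers are small proteins of the inner mitochondrial membrane that move metabolites, nucleotides, amino acids and cofactors between the cytosol and the matrix, most of them by exchanging one solute for another. They are encoded in the nucleus, made without a cleaved presequence in most cases, and inserted by the TIM22 complex. Normal prostate epithelium secretes citrate that leaves the matrix through these carriers, whereas prostate cancer cells oxidise citrate or use it for fatty acid synthesis.

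A value is a log2 ratio of the first-named condition to the second, turned to that direction by the dyes in the labels. The arrays give ratios and no levels, so the abundance of a carrier mRNA could not be compared with that of another, and fewer cells of a type cannot be told apart from less RNA per cell. A transcript passed with a Benjamini-Hochberg adjusted p below 0.05 in limma and a log2 ratio beyond 0.7, the thresholds of the study's methods. The fit has 2 cultures per condition and 2 residual degrees of freedom, the 3 comparisons share extracts, and the SE of a gene is the same in all 3. The base and direction of the deposited ratios are not stated in the sources used here. With the reading used here, the energy stress genes DDIT4 and SESN2 had log2 ratios of 3.28 and 2.48 with metformin over control (adjusted p = 0.00696 and 0.0147 from limma). With AICAR over control SESN2 was at 1.33 (adjusted p = 0.0432) and DDIT4 had the opposite sign at −1.34 (adjusted p = 0.0171), so these genes alone do not settle the direction of the AICAR ratios, which was taken from the dyes in the labels. The direct ratio of metformin to control correlated with the sum of the ratios of metformin to AICAR and of AICAR to control, at 0.818 in culture 1 and 0.754 in culture 2. Turning both ratios that involve AICAR would reverse the sign of these correlations. Of the 6 measured markers of androgen-dependent prostate epithelium, 0 were higher and 2 lower with metformin than in control cells, KLK3 (log2 −0.72) and TMPRSS2 (log2 −1.04), and all 6 ratios were negative. With AICAR over control, 0 were higher and 1, TMPRSS2 (log2 −1.90), was lower, and the ratios of 3 of the 6 were positive, up to 0.36. Between metformin and AICAR, TMPRSS2 was higher (log2 0.86), ACP3 was lower (log2 −0.78), and 5 of the 6 ratios were negative. Of 9 markers of fibroblasts and leukocytes, 1 passed, VIM, which was lower with metformin than in control cells (log2 −0.74) and than with AICAR (log2 −1.10, adjusted p = 0.00828 from limma). The 9 ratios ran from −0.74 to 0.22 with metformin over control, from −0.31 to 0.36 with AICAR over control, where none passed, and from −1.10 to 0.42 between metformin and AICAR. Over all transcripts, 2.73% passed with metformin over control, 3.35% with AICAR over control and 6.60% between metformin and AICAR. The part of these marker changes in the carrier ratios was not tested.

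Few carrier genes moved far. Between metformin and control cells, 0 of the 28 were higher and 0 were lower, where 1.5% of all transcripts were higher and 1.23% were lower. At an unadjusted p below 0.05 there were 7 of 28, against 17.5% of all transcripts, and the smallest adjusted p of limma was 0.0604. Between AICAR and control, 0 were higher and 1 was lower, against 0.456% and 2.89% of all transcripts. Between metformin and AICAR, 1 was higher and 1 was lower, against 4.59% and 2.01%. Counts of 0 or 1 in 28 genes are near these background shares.

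The middle of the family lay near 0 in each comparison. The median log2 ratio of the 28 was −0.08 with metformin over control, 0.08 with AICAR over control and −0.06 with metformin over AICAR, beside 0.00, 0.04 and −0.03 for all transcripts. Ratios were negative for 19 of 28 genes with metformin over control, for 12 with AICAR over control and for 17 between metformin and AICAR, which is 67.9%, 42.9% and 60.7%, against 50.1%, 39.6% and 58.1% of all transcripts. The median size, regardless of sign, was 0.15, 0.14 and 0.18 in that order of comparisons, against 0.10, 0.12 and 0.13 for all transcripts. For named genes it was 0.11, 0.14 and 0.16. On all 4 arrays of a comparison, 12 of 28 genes kept 1 sign with metformin over control, 9 with AICAR over control and 17 between metformin and AICAR, which is 42.9%, 32.1% and 60.7% of the family, against 26.1%, 29.3% and 39.0% of all transcripts. Of the 28, 21 stayed within 0.5 of zero in every comparison, and 15 had no unadjusted p below 0.05. The matching shares of all transcripts across the comparisons were not computed, so whether these counts are usual was not tested. Within single comparisons, 7, 4 and 10 of the 28 had an unadjusted p below 0.05, in the same order. Over all transcripts the shares were 17.5%, 20.9% and 26.4%.

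**Figure D1:**
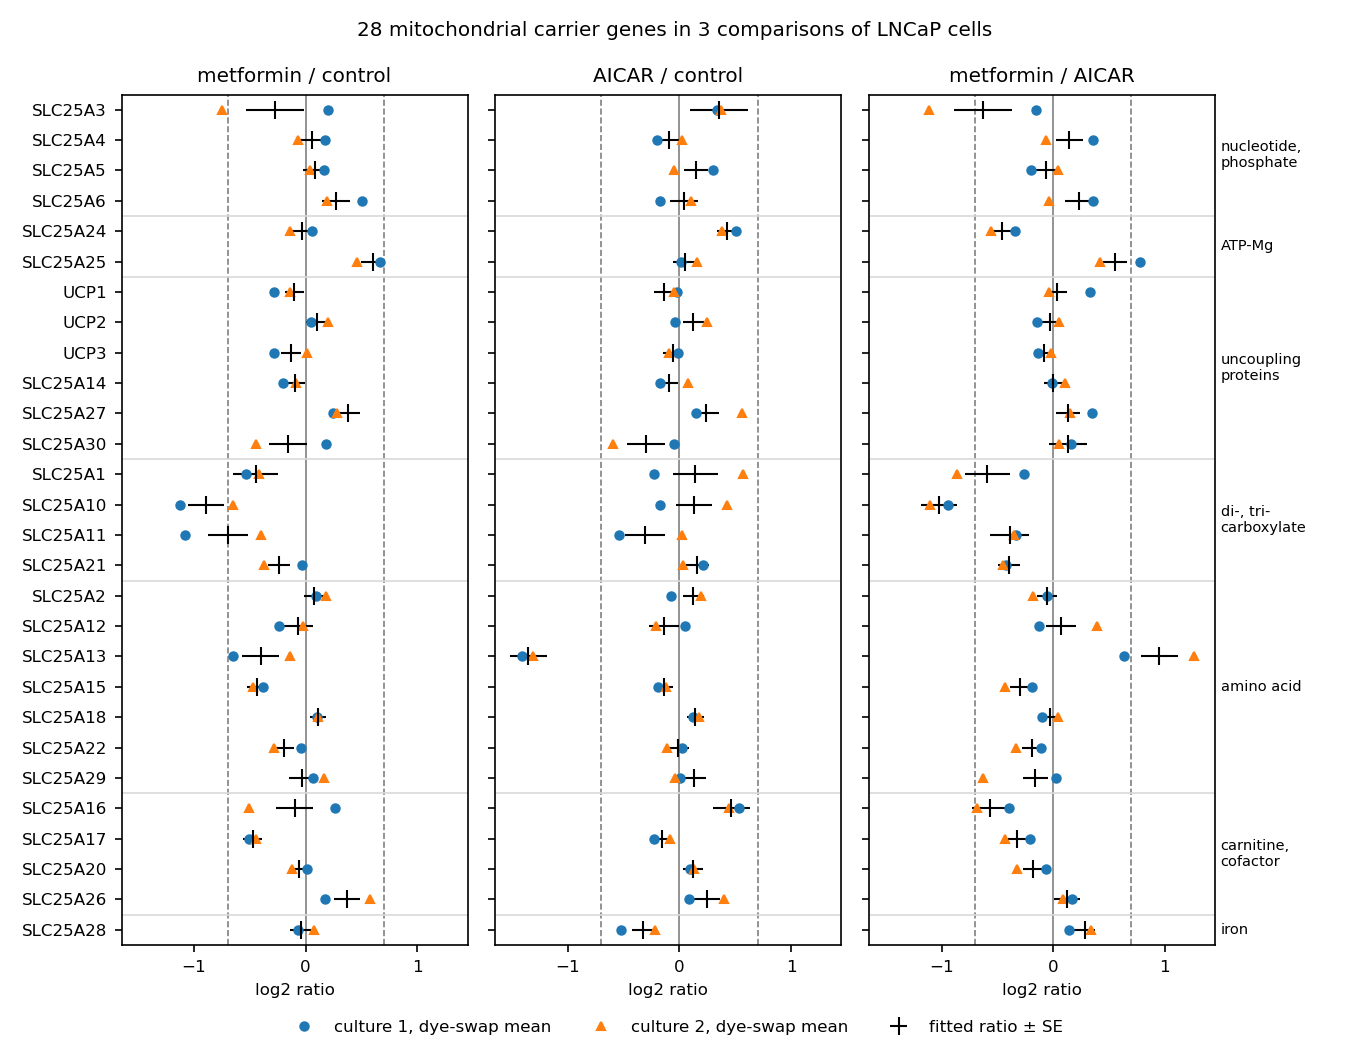
Log2 ratios of the 28 carrier genes in the 3 comparisons, grouped by the solutes they carry, with the dye-swap mean of each culture, the fitted ratio with its SE, and dashed lines at 0.7 and −0.7. SLC25A13 with AICAR against control (−1.35) is the farthest from zero, SLC25A10 lies at −0.89 and −1.02 with metformin, and most other genes stay between the dashed lines.

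SLC25A13 encodes citrin, an aspartate-glutamate carrier that sends aspartate out of the matrix in exchange for glutamate and a proton and is a step of the malate-aspartate shuttle. In AICAR-treated against control cells its ratio was −1.85 and −0.97 on the arrays of culture 1 and −1.57 and −1.06 on those of culture 2. All 4 arrays were below the size threshold, and the cultures overlapped. Over the 2 cultures this gave a fitted log2 ratio of −1.35 (SE 0.16, limma adjusted p = 0.0222), which is 2.56-fold lower with AICAR.

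Set directly against AICAR, metformin-treated cells had the higher SLC25A13 mRNA. The arrays gave 0.56 and 0.71 in culture 1 and 1.11 and 1.40 in culture 2, so every array was positive and culture 2 lay above culture 1. The fitted ratio was 0.95 (SE 0.16, adjusted p = 0.0309 from limma), and with the direct arrays of this comparison alone it was 0.95 with an adjusted p of 0.0731. Between metformin and control cells the arrays read −0.83 and −0.47 in culture 1 and −0.41 and 0.12 in culture 2, with a fitted ratio of −0.40 (adjusted p = 0.311 from limma). These last values straddled zero and did not pass.

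The stretch of 250 bases before a transcription start is shown for SLC25A13, a carrier that passed, and for SLC25A25, which had the smallest adjusted p with metformin against control. For SLC25A25, which has several listed starts, it is the window before an internal start of the gene, shown for the motif it holds. The sequences are from RefSeq (GRCh38.p14) and are written 5′ to 3′ on the strand of the gene, and positions count back from that start, whose preceding base is −1. Both strands were searched for the E-box CACGTG, bound by MYC and MITF family factors, the cAMP response element TGACGTCA, the amino acid response element core TGATGNAA and the motif of NRF1, a regulator of nuclear genes for mitochondria. Capitals mark a match.
SLC25A13, chr7:96322099-96322348, minus strand: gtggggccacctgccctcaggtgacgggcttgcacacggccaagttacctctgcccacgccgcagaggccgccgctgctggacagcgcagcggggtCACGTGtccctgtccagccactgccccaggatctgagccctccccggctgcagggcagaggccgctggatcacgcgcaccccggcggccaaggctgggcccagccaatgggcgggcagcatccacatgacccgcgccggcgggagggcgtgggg
SLC25A25, chr9:128098257-128098506, plus strand: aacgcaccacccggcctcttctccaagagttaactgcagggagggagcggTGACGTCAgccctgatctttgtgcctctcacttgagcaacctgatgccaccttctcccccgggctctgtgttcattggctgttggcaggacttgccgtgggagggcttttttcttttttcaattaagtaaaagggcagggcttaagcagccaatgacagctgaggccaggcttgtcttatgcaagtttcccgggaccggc
The SLC25A13 window holds an E-box at −154 to −149, a motif found in 6.34% of 35116 such windows. The SLC25A25 window shown holds a cAMP response element at −200 to −193, found in 1.65% of windows, while the window before the outermost start of the gene and the other internal one hold none of the 4 motifs. Windows were found for 25 of the 28 genes, with 35 starts, and not for SLC25A2, SLC25A16 and SLC25A30. The E-box was in 2 of these 35 (SLC25A13 and SLC25A26), the response element core in 1 (SLC25A11, against 3.14% of all windows) and the NRF1 motif in 2 (SLC25A11 and SLC25A3, against 5.07%). The median G and C content was 68.0% for the 35 windows and 58.0% for all. A match is a run of letters and not a measured binding site.

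SLC25A12 encodes aralar, the other aspartate-glutamate carrier, and did not follow SLC25A13. With AICAR against control its ratio was −0.81 and 0.91 in culture 1 and −0.61 and 0.20 in culture 2. The sign changed with the dye in each culture, and the fitted ratio was −0.14 (SE 0.13, adjusted p = 0.605 from limma). The fitted ratio was −0.07 with metformin against control and 0.07 between metformin and AICAR. SLC25A11, the 2-oxoglutarate/malate carrier and the other carrier of the shuttle, had −0.64 and −1.51 in culture 1 and −0.28 and −0.52 in culture 2 with metformin against control. All 4 arrays were negative, yet the fitted ratio of −0.70 did not pass (SE 0.18, adjusted p = 0.129 from limma).

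Of the 7 measured enzymes of the malate-aspartate and glycerol phosphate shuttles, 1 was higher with metformin than in control cells and 0 were lower. It was GOT1, the cytosolic aspartate aminotransferase, at 1.49 (SE 0.15, adjusted p = 0.0181 from limma) and at 1.27 against AICAR (adjusted p = 0.0124). The mitochondrial aminotransferase GOT2 was at −0.22 and the malate dehydrogenases MDH1 and MDH2 at −0.33 and 0.17 with metformin against control, and none of them passed. None of the 7 passed with AICAR over control, and their ratios lay between 0.05 and 0.37. The shares of all transcripts that passed were 2.73% with metformin over control, 3.35% with AICAR over control and 6.60% between them. The pathway plot sets the values of these enzymes beside those of the carriers.

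**Figure D2:**
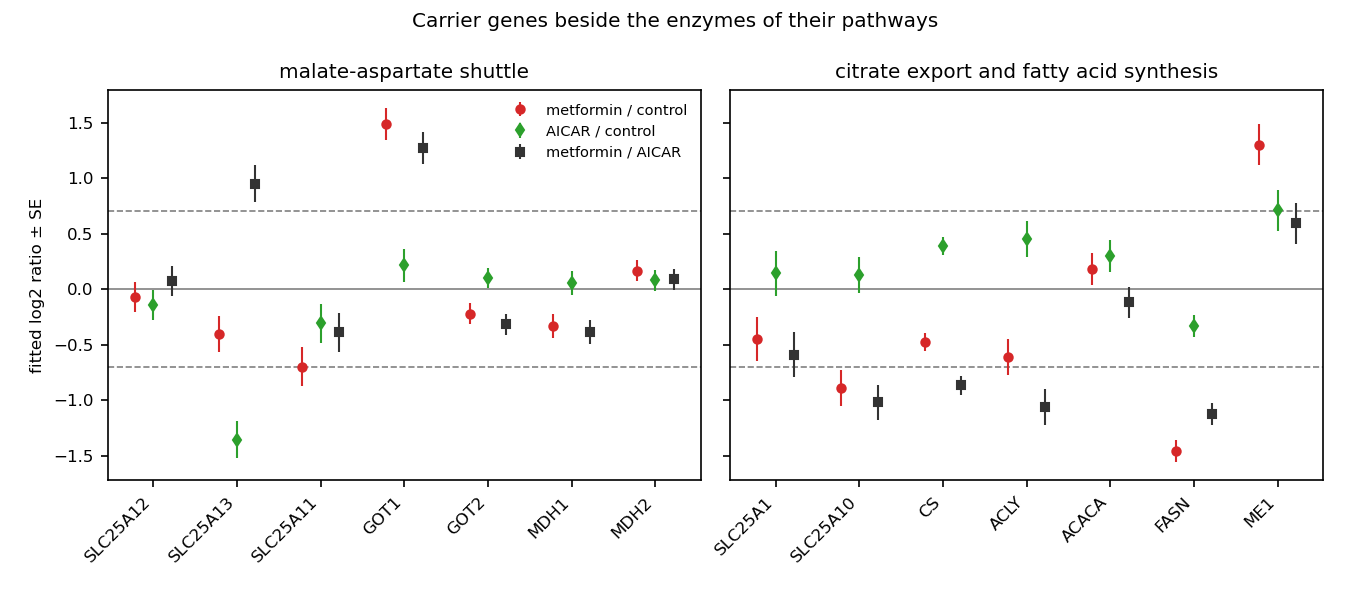
Fitted log2 ratios with their SE for carriers and enzymes of the malate-aspartate shuttle (left) and of citrate export and fatty acid synthesis (right), with dashed lines at 0.7 and −0.7. SLC25A13 is low with AICAR (−1.35) while GOT1 is high with metformin (1.49), and SLC25A10, CS, ACLY and FASN all have negative ratios of metformin to AICAR, from −0.86 to −1.13. ME1 went the other way in that comparison, with 0.45 to 0.70 on single arrays.

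SLC25A10 encodes the dicarboxylate carrier, which exchanges malate or succinate for phosphate. Between metformin and AICAR its ratio was −0.86 and −1.02 in culture 1 and −1.04 and −1.16 in culture 2. The 4 arrays lay close together and all beyond the size threshold, and the fitted ratio was −1.02 (SE 0.16, adjusted p = 0.0257 from limma), 2.03-fold lower with metformin. When 3 arrays with slide numbers far from those of the other 9 were left out, the ratio was −1.02 with an adjusted p of 0.0620. Against control, metformin gave −0.93 and −1.33 in culture 1 and −0.75 and −0.57 in culture 2. Culture 1 was lower than culture 2 on every array, and the fitted ratio of −0.89 had an adjusted p of 0.0623 from limma and did not pass. It passed when arrays were taken as separate data points or a dye term was fitted, but both fits count dye-swap arrays of the same extracts as replicates. It also passed in a fit to the 6 averaged ratios (adjusted p = 0.00563 from limma), which share extracts. From the direct ratios of this comparison alone the adjusted p of limma was 0.139. For AICAR over control the arrays read 0.01, −0.36, 0.51 and 0.35, negative on 1 and positive on 3, with a fitted ratio of 0.13 (adjusted p = 0.704 from limma).

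All 4 measured carriers of dicarboxylates, tricarboxylates and oxoacids had negative ratios with metformin, to control (−0.89 to −0.24, median −0.57) and to AICAR (−1.02 to −0.39, median −0.49). Of these, 0 passed against control and 1, SLC25A10, against AICAR, and both ratios share the metformin extracts. Over all transcripts, 50.1% of ratios were negative and 2.73% passed with metformin over control, and 58.1% and 6.60% against AICAR. The group has only 4 genes and was not tested as a set. SLC25A1, the citrate/malate exchanger that exports citrate, was at −0.45 against control (SE 0.20, adjusted p = 0.354 from limma) and at −0.59 against AICAR. SLC25A21, which carries oxoadipate and 2-oxoglutarate, was at −0.24 and −0.40 in the same comparisons. In AICAR-treated cells, 3 of the 4 ratios to control were positive and lay between 0.13 and 0.16, SLC25A11 was at −0.31, and none passed.

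Among 11 measured partner genes of pyruvate and citrate use, 1 was higher and 1 lower with metformin than in control cells, 0 and 0 with AICAR, and 0 higher and 4 lower between metformin and AICAR. In these comparisons 18.2%, 0% and 36.4% of the list passed, against 2.73%, 3.35% and 6.60% of all transcripts. FASN, fatty acid synthase, was lower with metformin at −1.46 against control (adjusted p = 0.0122 from limma) and at −1.13 against AICAR. ME1, the cytosolic malic enzyme, was higher against control at 1.30 (adjusted p = 0.0369). Against AICAR, citrate synthase CS (−0.86), the pyruvate dehydrogenase subunit DLAT (−0.84) and ATP-citrate lyase ACLY (−1.06) were also lower with metformin. ME1 went the other way, from 0.45 to 0.70 on single arrays, and did not pass against AICAR. Of the 11 ratios to AICAR, 9 were negative, against 58.1% of all transcripts.

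SLC25A25 and SLC25A24 encode ATP-Mg/phosphate carriers whose transport is switched on by cytosolic calcium. SLC25A25 had the smallest p of the family with metformin against control. Its arrays read 0.91 and 0.42 in culture 1 and 0.47 and 0.45 in culture 2. All were positive, 1 stood above the rest, and the fitted ratio was 0.60 (SE 0.11, adjusted p = 0.0604 from limma). Against AICAR the arrays gave 0.77 and 0.78 in culture 1 and 0.52 and 0.32 in culture 2, with a fitted ratio of 0.56 and an adjusted p of 0.0401, under the size threshold of 0.7. Its ratio of AICAR to control was 0.05.

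SLC25A24 gave another pattern, with its smallest p where AICAR was involved. In AICAR-treated against control cells the arrays read 0.70 and 0.31 in culture 1 and 0.73 and 0.02 in culture 2. All were positive but higher where AICAR was in Cy5, and the fitted ratio was 0.43 (SE 0.09, adjusted p = 0.0806 from limma). Between metformin and AICAR they read −0.14, −0.54, −0.18 and −0.94. The fitted ratio was −0.46 (adjusted p = 0.0434), below the size threshold, and the ratio of metformin to control was −0.03. So in the comparison of metformin with AICAR the ratios of these related carriers had opposite signs, and a test of their difference was not made.

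**Figure D3:**
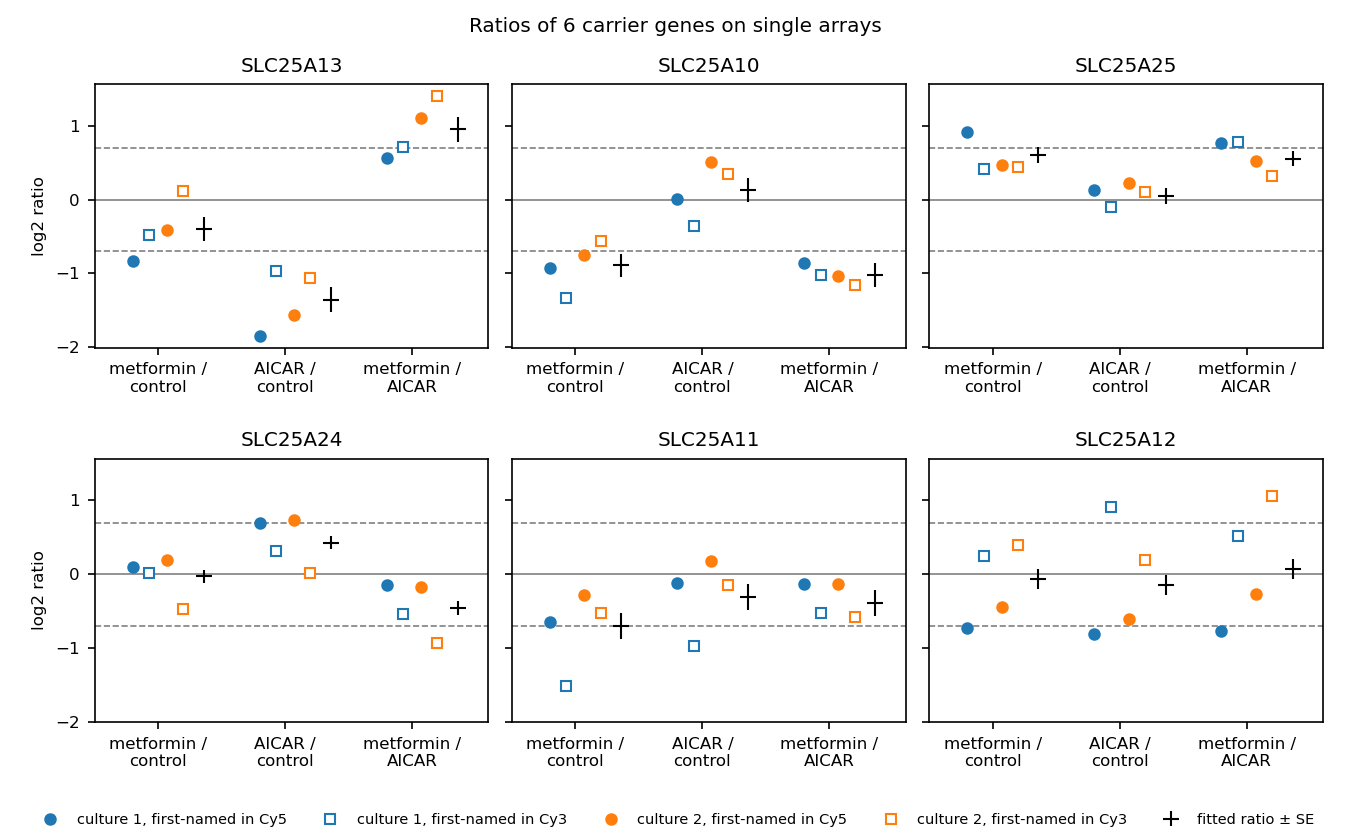
Log2 ratios of 6 carrier genes on each of the 12 arrays, by culture (colour) and by the dye of the first-named condition (filled for Cy5, open for Cy3), with the fitted ratio and its SE at the right of each comparison. SLC25A13 is below −0.9 on all 4 arrays of AICAR against control, SLC25A10 is below −0.8 on all 4 of metformin against AICAR, and SLC25A12 changes sign with the dye in every pair.

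The other amino acid carriers moved little. SLC25A15, the ornithine carrier of the urea cycle, was negative on every array of metformin against control, at −0.27 and −0.49 in culture 1 and −0.47 on each array of culture 2. The fitted ratio was −0.44 (SE 0.09, adjusted p = 0.0728 from limma), and it was −0.30 against AICAR. The other ornithine carrier SLC25A2, the glutamate carriers SLC25A18 and SLC25A22 and the basic amino acid carrier SLC25A29 lay between −0.20 and 0.14 in all comparisons. On 1 array of metformin against AICAR, SLC25A29 read −1.52 where the other 3 were at 0.14, −0.09 and 0.26.

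Of 9 measured partner genes of glutamate, ornithine and proline metabolism, 2 were higher and 0 lower with metformin against control, and the same counts held against AICAR. In both comparisons they were ASNS, which makes asparagine from aspartate (2.55 and 2.23), and GPT2, the mitochondrial alanine aminotransferase (1.17 and 1.46). GLUD1, glutamate dehydrogenase, was at 0.26, and OAT, ornithine aminotransferase, at 0.33 against control, and neither passed. None of the 9 passed with AICAR over control. The shares of all transcripts that passed were 2.73% with metformin over control, 6.60% with metformin over AICAR and 3.35% with AICAR over control.

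Among carriers of cofactors, SLC25A17, the peroxisomal carrier of coenzyme A, FAD and NAD+, had −0.30 and −0.71 in culture 1 and −0.45 and −0.44 in culture 2 with metformin against control. All arrays were negative and the cultures overlapped, with a fitted ratio of −0.48 (SE 0.09, adjusted p = 0.0613 from limma) and −0.32 against AICAR. SLC25A16, linked to the mitochondrial coenzyme A pool, was positive on all arrays of AICAR against control, at 0.60 and 0.47 in culture 1 and 0.44 and 0.46 in culture 2. The fitted ratio of 0.46 did not pass (SE 0.16, adjusted p = 0.205 from limma). With metformin against control its cultures went opposite ways, 0.26 in culture 1 and −0.51 in culture 2. SLC25A20, the carnitine/acylcarnitine carrier of fatty acid oxidation, lay between −0.18 and 0.12 in all comparisons.

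SLC25A26, which brings S-adenosylmethionine into mitochondria, was at 0.37 with metformin (adjusted p = 0.199 from limma), 0.25 with AICAR and 0.13 between them, and did not pass. Around it, MAT2A, which makes S-adenosylmethionine in the cytosol, was lower with AICAR than in control cells at −2.59 (SE 0.18, adjusted p = 0.0082 from limma) and higher with metformin than with AICAR at 2.80. MTHFD1, a cytosolic folate enzyme, was lower with metformin at −1.19 against control and −1.13 against AICAR. In this list of 9 measured genes, 0 were higher and 1 lower with metformin against control, 0 and 1 with AICAR, and 1 and 1 between them. Over all transcripts, 2.73%, 3.35% and 6.60% passed in the same order of comparisons.

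The ADP/ATP carriers SLC25A4, SLC25A5 and SLC25A6, which export ATP from the matrix, and the phosphate carrier SLC25A3 supply ATP synthase with its substrates. None of the 4 passed in any comparison. The ADP/ATP carriers lay between −0.09 and 0.27, and since their sequences are alike, a part of the signal may be shared between their probes. SLC25A3 had the largest SE of the family, 0.26. With metformin against control it read 0.47 and −0.08 in culture 1 and −0.64 and −0.86 in culture 2. The cultures did not overlap and had opposite means, 0.20 and −0.75, and the fitted ratio was −0.28 (adjusted p = 0.706 from limma). All 4 arrays of AICAR over control were positive, from 0.17 to 0.54. Of 14 measured ATP synthase subunits, 0 were called in any comparison. Over all transcripts, 2.73% were called with metformin, 3.35% with AICAR and 6.60% between metformin and AICAR. The median of the subunits was −0.15, 0.15 and −0.41 in the same order. ATP5MC1, a subunit of the membrane ring, was at −0.63 with an adjusted p of 0.0365 from limma with metformin against control, under the size threshold. Between metformin and AICAR, 4 of the 14 had an adjusted p below 0.05 in limma, the smallest 0.0200, without passing on size as well. Over all transcripts, 2695 of 24541 were below that adjusted p.

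The uncoupling proteins let protons or anions back across the inner membrane, UCP1 for heat in brown fat and UCP2 and UCP3 with less settled roles. UCP1, UCP2 and UCP3 lay between −0.14 and 0.12 in all comparisons, with adjusted p of 0.414 or more in limma. The UCP3 value is a mean of probes, which were fitted at −0.27 and 0.16 with AICAR against control. Of the close relatives of the uncoupling proteins, SLC25A14 lay between −0.10 and 0.00 and SLC25A30 between −0.30 and 0.13. SLC25A27, also called UCP4 and known from brain, had 0.32 and 0.17 in culture 1 and 0.73 and −0.16 in culture 2 with metformin against control. For AICAR over control it read 0.42 and −0.13 in culture 1 and 1.46 and −0.33 in culture 2. The array with the treatment in Cy5 was the higher of its pair each time, and the fitted ratios of 0.38 and 0.24 did not pass (adjusted p = 0.171 and 0.298 from limma).

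SLC25A28, mitoferrin 2, which brings iron into mitochondria, was at −0.33 with AICAR against control (SE 0.09, adjusted p = 0.146 from limma), and its 2 probes differed. The probe listed with a RefSeq transcript averaged −1.03 in culture 1 and −0.59 in culture 2, between −1.14 and −0.44 on single arrays. The probe listed with a cDNA clone averaged −0.03 in culture 1 and 0.16 in culture 2. Its arrays ran from −0.20 to 0.51, so the ranges of the probes did not overlap. With probes tested singly, the first had a fitted ratio of −0.77 (SE 0.12, adjusted p = 0.0390 from limma) and passed, and between metformin and AICAR it was at 0.68 (adjusted p = 0.0325), just under the size threshold. The second was at 0.11 and −0.12.

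With AICAR against control, the probe means of the other carriers in the set lay closer together. The 3 probes of SLC25A3 gave 0.20, 0.15 and 0.25 in culture 1 and −0.60, −0.86 and −0.79 in culture 2 with metformin against control, so all showed the same split between cultures. The probes of UCP3 had opposite signs with AICAR against control, −0.31 and 0.20. Their single arrays ran from −0.46 to −0.10 and from 0.14 to 0.24, so these ranges did not overlap either. For SLC25A4 and SLC25A5, the probe listed with a RefSeq transcript varied more between arrays than the one listed with a clone, −0.14 to 0.78 against −0.20 to 0.04 for SLC25A4 with metformin.

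**Figure D4:**
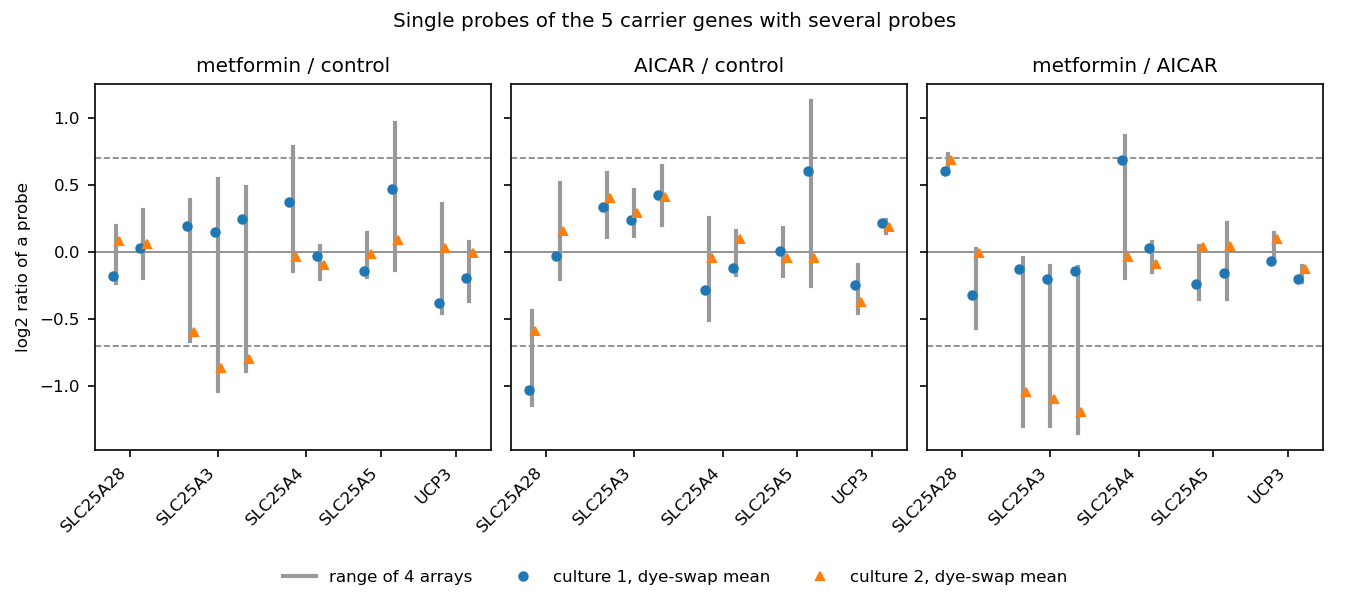
Log2 ratios of each probe of the 5 carrier genes with several probes, with the range over the 4 arrays (grey) and the dye-swap mean of each culture, and dashed lines at 0.7 and −0.7. The first probe of SLC25A28 is low with AICAR (−1.03 and −0.59) while the second stays near zero, and the 3 probes of SLC25A3 share the low values of culture 2 with metformin.

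Carriers reach the inner membrane through the TOM pore, small TIM chaperones and the TIM22 complex. Of 15 measured genes of this route and its cytosolic chaperones, 0 were higher and 1 lower with metformin against control, 0 and 2 with AICAR, and 0 and 1 between them. That is 6.67%, 13.3% and 6.67% of the list, against 2.73%, 3.35% and 6.60% of all transcripts. TOMM40, the pore of the outer membrane, was lower with metformin at −1.29 against control (SE 0.17, adjusted p = 0.0306 from limma) and at −1.09 against AICAR. TIMM22, which inserts carriers into the inner membrane, was lower with AICAR at −0.96 (adjusted p = 0.0334), and so was HSPA8, a chaperone that guides carriers to the outer membrane, at −1.01 (adjusted p = 0.0239). TIMM22 and HSPA8 were also at −0.53 and −0.73 with metformin against control (adjusted p = 0.141 and 0.0572 from limma). Between metformin and AICAR they were at 0.43 and 0.28, and none of these ratios passed. The lowest ratios of the list with metformin were those of HSP90AA1, −1.48 against control and −1.76 against AICAR, which did not pass. The median of the 15 was −0.45 with metformin and −0.08 with AICAR. Of 12 other transporters of the inner membrane, 1 passed, the sideroflexin SFXN2, lower with metformin than with AICAR at −0.92 (adjusted p = 0.0384). From the direct arrays of metformin against control alone, 0 of 24541 transcripts passed in limma, so every call in that comparison also rests on the AICAR arrays.

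Dye swaps showed how far single arrays can be read for this family. The array with the first-named condition in Cy5 was the lower of its pair in all 6 pairs for SLC25A12, SLC25A13, SLC25A30 and UCP3, by 1.16 on average for SLC25A12 and by 0.45 for SLC25A13. It was the higher of its pair in all 6 for 9 genes, with the largest mean differences for SLC25A27 (0.68), SLC25A1 (0.62) and SLC25A11 (0.52). Such an offset cancels in the mean of a dye-swap pair. For SLC25A10 the mean difference was 0.17.

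A further 6 carriers, with 9 features, are listed on the platform under older symbols and are not in the set of 28. They are SLC25A32, SLC25A37, SLC25A39, SLC25A40, SLC25A47 and SLC25A51, none of which passed. With probes averaged, the largest of their ratios was that of SLC25A39, linked to glutathione import, at −0.38 between metformin and AICAR (adjusted p = 0.0953 from limma). The probes of SLC25A37 differed, fitted singly at 0.16, −0.78 and −0.12 with AICAR against control. Between metformin and AICAR they were at −0.18, 0.65 and 0.14, and none of them passed.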

How the data were processed

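The authors printed the arrays with an oligonucleotide collection and normalized them in limma (version not given in the sources used here) with print-tip loess within slides and quantiles between slides. The 1 deposited table holds log ratios, taken to be log2 ratios of the Cy5 to the Cy3 channel. Log base, direction and background correction are not given in the sources used here, and no values were missing. Array medians lay between −0.0417 and 0.0510, and dye-swap partners correlated across features at −0.723 to −0.420 before their signs were aligned.

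Of the 27648 features, 17593 were named from the platform annotation and a RefSeq gene table (14600 by accession, 2837 by symbol or synonym, 156 as listed). Probes of a gene were averaged. Dye-swap pairs were averaged to 6 ratios, reduced by least squares to 6 extract levels, and fitted in limma 3.58.1 (R 4.3.3) with treatment and culture, a paired design since ratios exist only within a culture. Moderated variances had 2.88 prior degrees of freedom, and p-values were adjusted over 24541 transcripts. SE is the moderated standard error, and precision is limited by how few arrays there are. The fit was run on simulated extract levels with normal noise and known changes. The simulation had no dye offsets, array noise or differences between cultures, so it does not show how the fit handles these.

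The carriers and the lists of partner genes and markers were chosen with earlier results of these data known. Named are the carriers that passed, the 4 others with the smallest p in each comparison, and the partner genes that passed; carriers, partners and probes named beyond these were picked with their values in view. Alternatives were other fits, scalings, thresholds and namings, probes tested singly, and leaving out a culture or 3 arrays. No low-value filter could be applied to ratios without intensities.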

Additional observations from a re-analysis of the deposited data

Results flagged for a closer look

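On the 4 arrays of each comparison, 126 groups of values were examined for 1 array far from the others, those of the 28 carriers and of 14 partner genes that passed. About 6.3 such groups are expected by chance and 6 were found. With metformin against control, an array of culture 1 gave −0.274 for SLC25A15 (others −0.490 to −0.467), 0.912 for SLC25A25 (others 0.422 to 0.469) and −0.0352 for SLC25A29 (others 0.157 to 0.175). With AICAR against control, an array of culture 1 gave 0.603 for SLC25A16 (others 0.440 to 0.466) and −0.346 for SLC25A17 (others −0.108 to −0.0663). Between metformin and AICAR, an array of culture 1 gave 0.451 for ME1 (others 0.661 to 0.701). All 6 arrays were of culture 1. Only that of SLC25A29 differed in sign from the rest.

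In 5 groups every array of culture 1 lay on the other side of zero from every array of culture 2, a difference that was not tested. That is 5 of 126, against 7.4% of such groups over all transcripts. The means were 0.262 in culture 1 and −0.512 in culture 2 for SLC25A16 with metformin against control, 0.304 and −0.0457 for SLC25A5, −0.170 and 0.106 for SLC25A6 and −0.0394 and 0.123 for SFXN2 with AICAR against control, and −0.103 and 0.0448 for SLC25A18 between metformin and AICAR.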

How the results depend on the processing

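The paired fit with the replicate block (culture) called 0 carriers higher and 0 lower for metformin over control, 0 and 1 for AICAR over control, and 1 and 1 for metformin over AICAR. A ratio is formed within a culture, so the fits made to ratios or to single arrays had no separate culture term. With arrays as separate data points, 6 averaged ratios or 12 arrays with a dye term, 1 was lower with metformin (SLC25A10). The fits to single arrays count dye-swap arrays of the same extracts as replicates, and the 6 averaged ratios share extracts. Between the treatments, 0 were higher from direct ratios only, 2 were higher and 2 lower by adjusted p alone (SLC25A25 and SLC25A24 added), and 0 were lower without the 3 arrays with slide numbers apart. With probes tested singly, 2 were lower with AICAR (SLC25A28 added). The cause was not tested, except that dropping the size threshold adds calls by its construction. SLC25A13 with AICAR passed in all 10 settings with a test over genes, with an adjusted p of at most 0.0483 in limma. Among 84 carrier ratios, leaving out either culture turned the sign in 28 and other settings in 16, none of them in the 3 called. Without a culture no test is left.

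Calls over all transcripts moved by over 1.5 times from direct ratios only (metformin over control, 0 higher and 0 lower) and without the 3 arrays (metformin over control, 210 and 121, AICAR over control, 60 and 382, metformin over AICAR, 314 lower). Calls of lower transcripts for metformin over control became 455 with 6 averaged ratios, 468 with a dye term and 464 with separate arrays. Calls of higher transcripts for AICAR over control became 68 with scaled arrays, 241 with 6 averaged ratios, 278 with a dye term, 275 with separate arrays and 190 by adjusted p alone, which also gave 1043 lower for metformin over AICAR. The 3 arrays are those of metformin and control in culture 1 and 1 of AICAR and control in culture 1.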
